A study of Mus musculus with 24 samples.

Results

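The proteasome genes of mouse liver were followed across furan dosing and 3 ways of preserving the tissue. The members are all gene symbols of the count table that begin with Psma, Psmb, Psmc, Psmd or Psme followed by a digit, which gave 45 of 24015 genes. By role they are 8 alpha subunits and 7 constitutive beta subunits of the core, 4 inducible or tissue-specific beta subunits, 9 genes of the base and 8 of the lid of the regulatory cap, 3 assembly chaperones and 4 activators. The remaining 2 match by symbol only or by copy: Psmc3ip encodes a meiotic recombination protein, and Psme2b is a near copy of Psme2.

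The proteasome is the protease that degrades proteins tagged with ubiquitin. Its barrel-shaped core holds the cutting sites on beta subunits, and its regulatory cap has a base of ATPases that unfold the substrate and a lid that removes the ubiquitin. Interferon-gamma replaces the cutting subunits by inducible ones whose products feed antigen presentation, and other activators can take the place of the cap. In liver the proteasome clears damaged proteins, and its genes are known to be raised together by the transcription factor Nfe2l1 when proteasome activity is short and in part by Nfe2l2 under oxidative stress.

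Female B6C3F1 mice, a hybrid strain bought at 5 to 6 weeks of age, received by gavage on 21 days either furan dissolved in corn oil, at a daily dose of 8 mg/kg (animals 41, 42, 43 and 44), or the oil alone (animals 2, 3, 4 and 6). Furan is a volatile ring compound that forms during cooking and damages the rodent liver. Livers were taken 4 hours after the last gavage and each was cut into 3 pieces, one snap frozen (fresh frozen), one fixed in formalin for 18 h and embedded in paraffin (FFPE 18 h), and one fixed for 3 weeks (FFPE 3 weeks). RNA came from whole liver tissue with one kit for frozen and another for fixed pieces, from 1 section of the 18 h blocks and from 2 sections of the 3 weeks blocks, so that fixation, kit, input and piece of liver cannot be told apart. All libraries were ribosome-depleted total RNA.

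The 6 groups held 4 libraries each. Total counts ran from 37978435 to 49326373 in fresh frozen, 22889146 to 28054631 in FFPE 18 h and 5560002 to 11019297 in FFPE 3 weeks libraries, of which the 45 members took 0.236% to 0.275%, 0.187% to 0.213% and 0.140% to 0.172%. The 5 hepatocyte markers read together gave 149602 to 180376 CPM (counts divided by the library total in megacounts, after TMM scaling over the 24 libraries) in fresh frozen tissue. One fresh frozen library, from corn oil animal 3, stood apart. It was the lowest of the 8 fresh frozen libraries for 22 and the highest for 15 of the 44 members tested, 37 in all, against 3 to 13 for each other fresh frozen library. Members with GC-rich transcripts were high and members with GC-poor transcripts low in it. Its log2 deviation from the mean of corn oil animals 2, 4 and 6 had a correlation with transcript GC content of r = 0.68 over 44 members and r = 0.60 over 13903 genes. Taken the same way, each against the mean of the other corn oil animals including animal 3, animals 2, 4 and 6 had r = -0.73, -0.37 and -0.58 over the members. The FFPE 18 h library of animal 3 had r = 0.04 over the members. Psmd3, a lid subunit, was at 101 CPM in the fresh frozen piece of animal 3 and at 43.3, 43.5 and 41.3 CPM in those of animals 2, 4 and 6. Psma2, an alpha subunit, was at 24.7 CPM in animal 3 and at 61.0, 51.9 and 51.4 CPM in the other 3. What set this library apart was not tested, and furan values in fresh frozen tissue are given with and without it where a call, a sign or the size of a change depends on it.

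**Figure D1:**
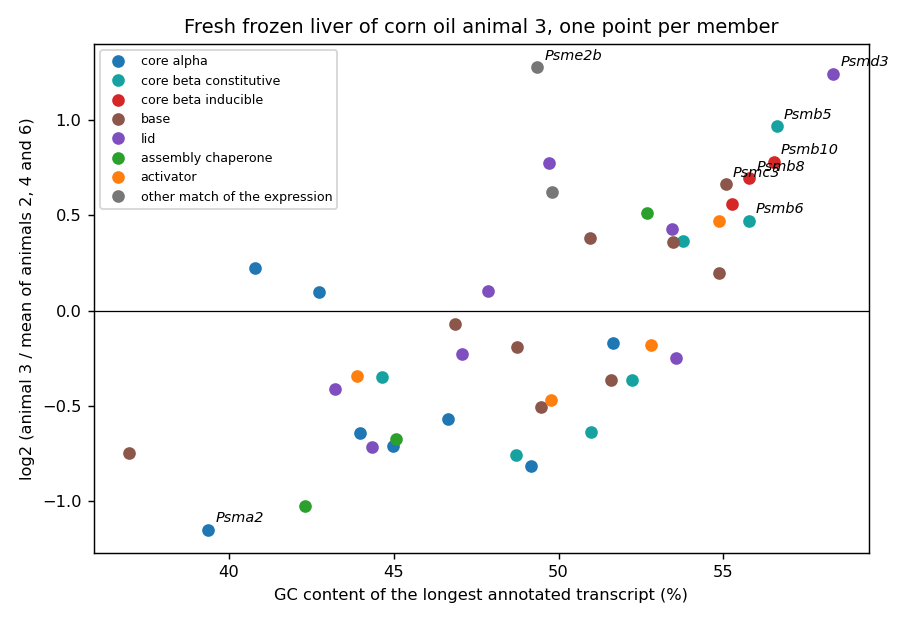
Fresh frozen liver of corn oil animal 3: for each member, the log2 ratio of its CPM in animal 3 to the mean of corn oil animals 2, 4 and 6 (vertical axis) against the GC content of its longest annotated transcript in percent (horizontal axis). Psmd3 and Psme2b lie highest at ratios of 2.37 and 2.43, and Psma2 lowest at 0.451.

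Levels of the subunits were compared per length in fresh frozen corn oil liver (mean ± SD, n = 4). They are CPM per kb of the joined exons of a gene's annotated transcripts, overlapping exons being counted once. Among the constitutive subunits of core and cap the median was 50.02 CPM per kb over 31 genes. By role the medians were 50.02 for 7 alpha subunits (Psma8, a testis subunit, set apart), 64.8 for the 7 beta subunits, 51.4 for the 9 base genes and 38.6 for the 8 lid genes. The highest levels were those of the beta subunit Psmb6 (111 ± 19.7), which carries one of the cutting sites, and of the alpha subunits Psma7 (111 ± 9.25) and Psma6 (93.0 ± 18.7). The 3 genes are read in the same libraries, so these SDs do not decide whether their levels differ, which was not tested.

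At the low end of the constitutive subunits were Psma3 (2.13 ± 0.423 CPM per kb), Psma5 (8.26 ± 2.07), Psmd11 (10.3 ± 0.524), Psmb5 (11.1 ± 4.29), Psma2 (16.2 ± 5.39) and Psmb3 (16.2 ± 2.80). In the assembled core each alpha and beta subunit is present in equal number, whereas these levels spanned 2.13 to 111 CPM per kb. Part of the low group has sequence that also occurs elsewhere in the transcriptome. Cut into words of 50 bases, 57.1% of the Psmb5 transcripts, 55.8% of Psmb3 and 55.4% of Psma5 recurred in transcripts of other genes, while 20 of the 45 members shared no word and 30 shared under 10%. The 3 constitutive subunits with over 50% of words shared had a median level of 11.1 CPM per kb, against 51.5 for the other 28. Psma3 shared 22.0%, Psmd11 18.9% and Psma2 3.53%. Assigned length enters these levels too: it was 2846, 2848 and 2911 bases for Psma3, Psmd11 and Psma2, against 914 for Psma7 and 1148 for Psma6. Not divided by length, Psma2 was at 61.0, 24.7, 51.9 and 51.4 CPM in corn oil animals 2, 3, 4 and 6. Psma4, of 1165 bases, was at 72.0, 39.4, 63.1 and 58.5 CPM, and Psma3 remained low at 4.91 to 7.36 CPM. How reads that map to several places were counted is not given in the sources used here. The part of shared sequence and of assigned length in these levels was not tested.

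Levels of the inducible subunits and chaperones lay below the constitutive median, and those of the activators on both sides of it. Psmb8 (22.5 ± 6.49 CPM per kb), Psmb10 (22.9 ± 7.03) and Psmb9 (8.77 ± 2.08) are the inducible cutting subunits, and their SDs include the high values of animal 3. The assembly chaperones of the base, Psmd9, Psmd5 and Psmd10, were at 12.1 ± 2.44, 10.999 ± 2.49 and 7.85 ± 2.40. Of the activators, Psme1 of the interferon-inducible activator ring was at 57.5 ± 10.2, the large nuclear activator Psme4 at 48.0 ± 6.62, the nuclear activator Psme3 at 19.4 ± 3.05, and Psme2, the partner of Psme1, at 10.2 ± 1.34. The Psme2 level and the 39.5 ± 20.8 CPM per kb listed for its copy Psme2b are uncertain, because 59.3% of the Psme2 words occur in Psme2b.

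**Figure D2:**
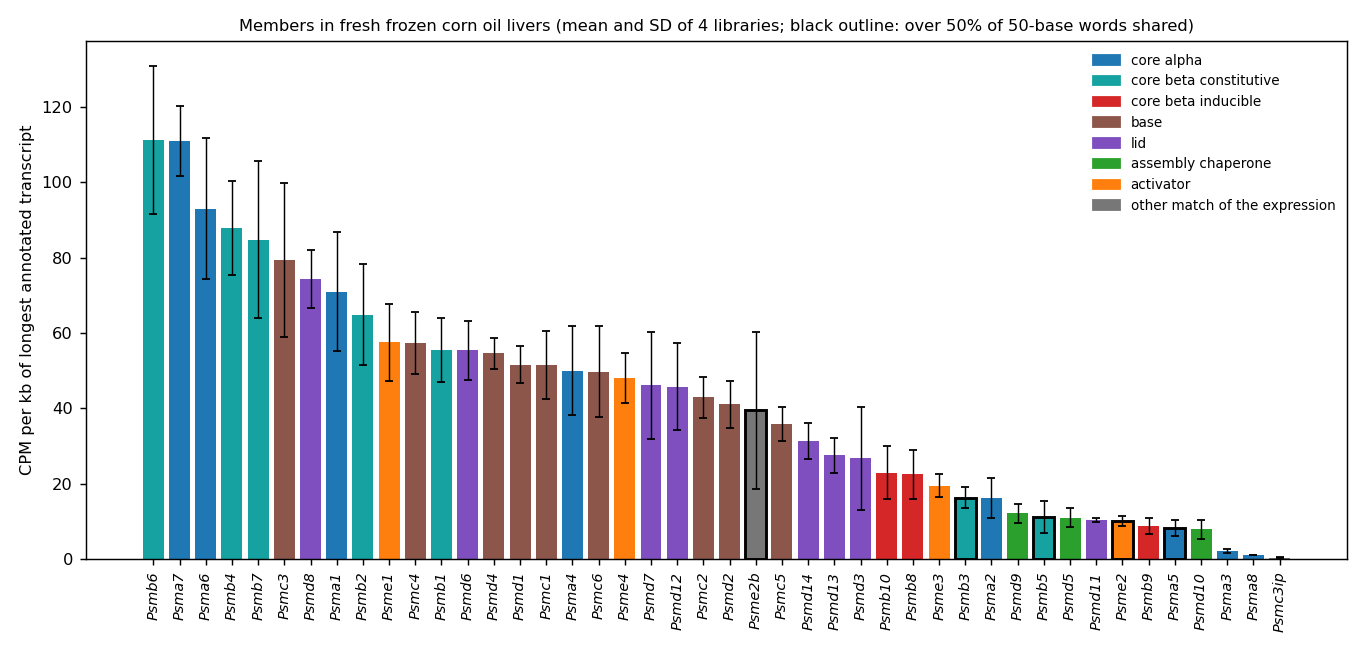
Members in fresh frozen corn oil liver, ordered by level: bars give the mean CPM per kb of joined exons over 4 libraries, whiskers the SD, colours the role, and a black outline marks over 50% of words shared with other genes. The axis label names this length the longest annotated transcript. Psmb6 and Psma7 stand at 111, and Psmb3, Psmb5 and Psma5 with outlines are among the lowest subunits.

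Members that belong to other tissues were near the floor. Psmb11, the thymus beta subunit, had 0 counts in all 8 fresh frozen libraries, at most 1 count in each FFPE 18 h library, and in FFPE 3 weeks 18 counts in corn oil animal 2, 1 count in furan animal 43 and 0 in the other 6. It passed the filter on low counts in no comparison. Psma8 had 35 to 143 counts per fresh frozen library and Psmc3ip 11 to 34. In the shallower FFPE 3 weeks libraries both were uneven: Psma8 had 55, 32 and 18 counts in 3 libraries and 0 in 5, and Psmc3ip had 28 and 13 counts in furan animals 42 and 43 and 0 in 6 libraries. These 2 were therefore not tested for furan in FFPE 3 weeks, which left 42 members there and 44 elsewhere.

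The question of the main comparison was whether furan moved the proteasome genes. Each preservation was tested on its own with edgeR's quasi-likelihood test over all genes, 4 against 4 animals, and a gene was called at an adjusted p below 0.05 (Benjamini-Hochberg over all genes tested). The 3 furan comparisons use pieces of the same 8 livers and are not independent of each other. In bulk tissue, fewer cells of a type and less RNA per cell cannot be told apart.

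In fresh frozen liver no member was called. edgeR called 0 of 44 higher, where 1.57% of all genes tested were called higher, and 0 lower, where 1.2% were. At an unadjusted p below 0.05 there were 8 of 44 members, against 18.4% of all genes. DESeq2 called 0 higher (3.82% of all genes) and 1 lower, Psmb10 (3.73%). Most members had positive values, their median log2 fold change being 0.12 and that of all genes -0.01, and 30 of the 44 were positive. By role the medians were 0.22 for the lid, 0.16 for the base, 0.13 for the alpha subunits, 0.09 for the constitutive beta subunits and -0.48 for the 3 inducible beta subunits tested.

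The library of animal 3 moved part of this. Without it 2 members were called higher and 1 lower (4.43% and 3.6% of all genes), all 3 named here after their values were seen. Psmc4, an ATPase of the base, rose with a log2 fold change of 0.32 ± 0.09 (SE, adjusted p = 0.0416 by edgeR). Psmd5, a chaperone that binds the ATPases during base assembly, rose by 0.37 ± 0.11 (adjusted p = 0.0451 by edgeR). Psmb10 fell, with a log2 fold change of -0.35 ± 0.11 (adjusted p = 0.0491 by edgeR). The median over the members was then 0.06, and that over all genes 0.003. The medians by role rested in part on this library: without it they were 0.19 for the lid, 0.08 for the base, 0.004 for the alpha subunits, 0.03 for the constitutive beta subunits and -0.32 for the inducible subunits. With all 8 libraries the furan change correlated with transcript GC content at r = -0.53 over the 44 members and -0.25 over all genes, and without animal 3 at -0.18 and -0.01.

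Fresh frozen groups did not overlap for 4 members, a count at or under the background: 3 of 44 higher (7.19% of all genes) and 1 of 44 lower (6.3%). Psmd11, a lid subunit, was at 30.2, 30.9, 27.7 and 28.4 CPM with corn oil and at 32.0, 38.2, 32.4 and 33.6 with furan, a log2 fold change of 0.22 ± 0.11 (adjusted p = 0.307 by edgeR). Psmd5 and Psme3, described further on, also had higher values in every furan animal and did not pass the threshold. Psmb10 was at 24.1, 43.8, 26.2 and 26.0 CPM with corn oil and at 19.0, 20.7, 21.4 and 18.5 with furan, so that all furan animals lay below all controls and the control SD came mostly from animal 3 (log2 fold change -0.59 ± 0.18, adjusted p = 0.121 by edgeR).

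Of 44 members 5 rose and 3 fell in FFPE 18 h liver. That is 11.4% called higher, where 7.82% of all genes tested were, and 6.82% called lower, where 7.72% were, so the share of members called is near that of all genes. At an unadjusted p below 0.05 there were 14 of 44 members and 28.9% of all genes. The median log2 fold change was 0.03 over the members and -0.003 over all genes. Called higher were Psmd5, Psme3, the lid subunit Psmd14, and the base ATPases Psmc2 and Psmc4. Called lower were the inducible beta subunits Psmb8 and Psmb9 and the lid subunit Psmd3. None of the 15 alpha and constitutive beta subunits tested was called. The groups did not overlap for 8 members with higher values (9.59% of all genes) and 6 with lower values (10.4%). DESeq2 also called 5 higher (8.77% of all genes) and 3 lower (9.17%). A single fit over all 24 libraries called 0 and 0 members, and 305 of all 14901 genes tested in either direction. Without animal 3 edgeR called 2 higher, Psmd5 and Psme3 (5.07% of all genes), and 2 lower, Psmb8 and Psmd3 (5.92%).

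Psmd5 had the smallest p among the members. Its FFPE 18 h values were 28.2, 31.8, 28.4 and 33.5 CPM with corn oil and at 46.6, 39.9, 39.8 and 46.5 CPM with furan. All 4 furan animals lay above all 4 controls, a 1.43-fold rise (log2 fold change 0.51 ± 0.09, adjusted p = 0.000675 by edgeR). Its fresh frozen values were 58.1, 33.4, 47.3 and 54.7 CPM with corn oil and at 80.6, 59.9, 64.5 and 71.2 CPM with furan. These groups did not overlap either, though the log2 fold change of 0.51 ± 0.17 did not pass (adjusted p = 0.135 by edgeR). In FFPE 3 weeks the values 13.8, 28.7, 17.1 and 22.9 CPM with corn oil and 24.8, 30.4, 25.6 and 16.5 CPM with furan overlapped (0.25 ± 0.28, adjusted p = 0.847 by edgeR).

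Psme3 forms a nuclear ring that opens the core without ubiquitin. FFPE 18 h liver had 58.7, 51.2, 48.4 and 55.4 CPM with corn oil and 67.3, 67.8, 66.8 and 72.9 CPM with furan, a 1.29-fold rise with no overlap (log2 fold change 0.37 ± 0.07, adjusted p = 0.00202 by edgeR). It was the only member whose groups did not overlap, with furan higher, in all 3 preservations. Fresh frozen values were 59.1, 40.1, 54.0 and 53.6 CPM against 69.8, 64.5, 63.8 and 71.5 CPM (0.38 ± 0.13, adjusted p = 0.141 by edgeR). Leaving out animal 3, the fresh frozen change was 0.28 ± 0.09 (adjusted p = 0.0674 by edgeR). The FFPE 3 weeks values were 79.5, 62.6, 61.4 and 74.9 CPM against 95.6, 101, 90.8 and 85.0 CPM (0.43 ± 0.14, adjusted p = 0.119 by edgeR). The same 8 animals gave all 3 sets, and the fresh frozen and FFPE 3 weeks changes did not pass the test.

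Psmd14 is the lid's metalloprotease that cuts ubiquitin chains off the substrate. FFPE 18 h values were 23.9, 25.2, 25.4 and 25.9 CPM with corn oil and 33.9, 25.6, 34.4 and 31.8 CPM with furan. Furan animals 41, 43 and 44 lay above all controls and animal 42 lay among them, and the gene rose by a log2 fold change of 0.33 ± 0.10 (adjusted p = 0.0240 by edgeR). The call was lost in 6 of the 8 fits that left out 1 library. Fresh frozen values were 56.7, 38.8, 48.6 and 49.5 CPM with corn oil and 66.0, 54.2, 63.8 and 65.3 CPM with furan (0.37 ± 0.13, adjusted p = 0.164 by edgeR). This fresh frozen change was 0.27 ± 0.10 without animal 3 (adjusted p = 0.109 by edgeR). The ATPases Psmc2 and Psmc4 rose by 0.21 ± 0.07 and 0.25 ± 0.08 on the log2 scale (adjusted p = 0.0347 and 0.0352 by edgeR), and without animal 3 neither was called in FFPE 18 h (adjusted p = 0.131 and 0.0774).

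Promoter sequence is shown for the 3 members called higher with the smallest p, so that their upstream stretches can be compared. The letters come from RefSeq, build GRCm38.p6, cut to the stretch before the start that lies outside annotated exons, and capitals mark a CCAAT box in either direction.
Psmd5, chr2:34870966-34871107, minus strand: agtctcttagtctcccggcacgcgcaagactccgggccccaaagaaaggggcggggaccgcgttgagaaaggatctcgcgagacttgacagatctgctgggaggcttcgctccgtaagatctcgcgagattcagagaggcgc
Psme3, chr11:101315963-101316212, plus strand: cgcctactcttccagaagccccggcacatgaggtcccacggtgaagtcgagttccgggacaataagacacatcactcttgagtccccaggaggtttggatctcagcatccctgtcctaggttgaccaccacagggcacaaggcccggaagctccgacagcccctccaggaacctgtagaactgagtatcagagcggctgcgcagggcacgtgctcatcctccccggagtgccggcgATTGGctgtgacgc
Psmd14, chr2:61711444-61711693, plus strand: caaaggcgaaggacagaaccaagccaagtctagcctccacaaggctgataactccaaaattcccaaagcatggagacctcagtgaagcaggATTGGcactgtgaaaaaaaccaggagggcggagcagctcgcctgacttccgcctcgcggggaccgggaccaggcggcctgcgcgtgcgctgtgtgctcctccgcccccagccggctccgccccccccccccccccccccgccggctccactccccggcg

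Psme3 and Psmd14 each hold 1 CCAAT box in these stretches and Psmd5 holds none. Promoters were found for 38 of the 45 member symbols, 41 in all, and searched on both strands over the bases before the start. CCAAT occurred in 36.6% of them and in 33.8% of all 32851 promoters of the table. The antioxidant response element core TGACNNNGC, bound by Nfe2l1 and Nfe2l2, occurred in 12.2% of member promoters and 10.2% of all. The core of the interferon-stimulated response element (GAAA, any 2 bases, GAAA) occurred in 7.32% and 2.98%, and the nuclear respiratory factor motif (GCGC, any 2 bases, GCGC) in 14.6% and 4.98%. The members with the interferon motif were Psmb3, Psmd4 and Psmd9. It occurred in 0 of the 6 promoters found for Psmb8, Psmb9, Psmb10, Psme1 and Psme2. Of the promoters found for members called in FFPE 18 h, those of Psmd14 and Psmc4 held the nuclear respiratory factor motif, and those of Psmc2, Psmd14, Psme3 and Psmb9 a CCAAT box. Such matches describe letters in these windows, the motifs can overlap, and no binding was measured.

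Psmb8 and Psmb9, the inducible cutting subunits that lie beside the peptide transporter genes in the histocompatibility region, were lower with furan in FFPE 18 h liver. Psmb8 was at 21.0, 19.4, 20.1 and 20.1 CPM with corn oil and at 15.8, 15.3, 16.995 and 15.7 CPM with furan (log2 fold change -0.33 ± 0.09, adjusted p = 0.0226 by edgeR). Psmb9 was at 8.60, 8.80, 9.14 and 8.64 CPM with corn oil and at 4.60, 6.43, 5.32 and 7.46 CPM with furan (-0.55 ± 0.16, adjusted p = 0.0266 by edgeR). For both genes every furan animal lay below every control. Psmb10, the third inducible subunit, was at 16.3, 16.99, 17.01 and 15.9 CPM with corn oil and at 12.6, 15.998, 13.8 and 13.7 CPM with furan. Furan animal 42 lay among the controls for Psmb10, and its change of -0.23 ± 0.11 did not pass (adjusted p = 0.162 by edgeR).

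In the other preservations Psmb8 and Psmb9 had negative changes that did not pass. Fresh frozen Psmb8 was at 28.2, 51.4, 37.0 and 29.9 CPM with corn oil and at 23.9, 27.1, 32.9 and 23.2 CPM with furan, and the groups overlapped (-0.45 ± 0.20, adjusted p = 0.253 by edgeR, and -0.24 ± 0.14, adjusted p = 0.323, without animal 3). Fresh frozen Psmb9 was at 9.86, 15.6, 12.4 and 9.55 CPM against 9.63, 9.36, 7.20 and 7.76 CPM, with furan animal 41 above the lowest control (-0.48 ± 0.19, adjusted p = 0.210 by edgeR). Its change without animal 3 was -0.32 ± 0.16 (adjusted p = 0.238 by edgeR). The FFPE 3 weeks changes were -0.59 ± 0.39 for Psmb8 and -0.78 ± 0.57 for Psmb9 (adjusted p = 0.624 and 0.683 by edgeR), where Psmb9 rested on 13 to 131 counts per library. The Psmb9 call in FFPE 18 h was lost in 4 of the 8 fits that left out 1 library, the Psmb8 call in 1 (without corn oil animal 2, adjusted p = 0.0502 by edgeR), and both when every library was thinned to the depth of the smallest.

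Inducible subunits are abundant in immune cells, and markers of the other cell types of liver were read beside them. The summed level of 8 sinusoidal endothelial markers in FFPE 18 h liver was 684 to 714 CPM with corn oil and 559 to 586 CPM with furan, and 5 of the 8 were called lower (7.72% of all genes). There 7 changes were negative and 1 was positive, at 0.11. In fresh frozen liver the same sums were 736 to 779 and 578 to 613 CPM, with 1 of 8 called lower, Stab2 (1.2% of all genes), and 3 of 8 without animal 3 (3.6%). In FFPE 3 weeks the sums overlapped, at 548 to 599 and 479 to 579 CPM. There 0 of 8 were called (1.51% of all genes lower), 5 being negative and 3 positive. The 10 Kupffer cell and macrophage markers summed to 311, 347, 597 and 317 CPM with corn oil and to 269 to 333 CPM with furan in FFPE 18 h, the value of 597 being corn oil animal 4. Of the 10, 0 were called by edgeR (7.82% of all genes higher and 7.72% lower), and 1 had an unadjusted p below 0.05 (28.9% of all genes). All 10 had negative changes in FFPE 18 h and in fresh frozen liver, with median log2 fold changes of -0.34 and -0.32. In FFPE 3 weeks 7 were negative and 3 positive, with a median of -0.10. The 10 lymphocyte markers summed to 22.8 to 45.3 CPM with corn oil (28.5 at most without animal 4) and 24.0 to 33.7 CPM with furan. Of the 7 tested 0 were called (7.82% of all genes higher and 7.72% lower) and 0 had an unadjusted p below 0.05 (28.9% of all genes). Of the 5 bile duct and 5 stellate markers, 0 were called in FFPE 18 h (7.82% of all genes higher and 7.72% lower). Of the 5 hepatocyte markers 1 was called lower there and 0 higher, with 3 positive and 2 negative changes. No marker of these lists was at 0 in every library of an FFPE 18 h group. The part of these cells in the Psmb8 and Psmb9 values was not tested.

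Each inducible subunit takes the place of one constitutive subunit, so the ratio of the pair within a library describes the balance of their transcripts. The Psmb9 to Psmb6 ratio per length in FFPE 18 h liver was 12.1% on average with corn oil and 7.56% with furan. On the log2 scale it ran from -3.28 to -2.95 with corn oil and from -4.05 to -3.46 with furan, with no overlap. In fresh frozen liver the same ratio ran from -3.86 to -3.46 and from -4.32 to -3.85 and overlapped, and in FFPE 3 weeks from -3.34 to -1.80 and from -4.54 to -2.92. The Psmb10 to Psmb7 ratio in FFPE 18 h ran from -1.92 to -1.61 with corn oil and from -2.11 to -1.82 with furan and overlapped, as did Psmb8 to Psmb5, at 0.73 to 1.12 and 0.29 to 1.12. Psmb5 carries sequence shared with other genes, and no test was made on these ratios.

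Psmd3, a scaffold of the lid, was at 56.0, 55.6, 58.9 and 53.3 CPM with corn oil and at 44.5, 46.3, 48.9 and 45.1 CPM with furan in FFPE 18 h liver, with no overlap (log2 fold change -0.27 ± 0.07, adjusted p = 0.0122 by edgeR). This call too was lost on thinning (adjusted p = 0.0676 by edgeR). Fresh frozen groups overlapped, at 43.3, 101, 43.5 and 41.3 CPM with corn oil and 36.8, 50.7, 51.7 and 42.4 CPM with furan, and the change was -0.33 with animal 3 and 0.09 without it, called in neither. FFPE 3 weeks values overlapped too, at 20.9, 28.5, 41.2 and 27.2 CPM against 21.2, 25.9, 34.7 and 27.5 CPM.

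**Figure D3:**
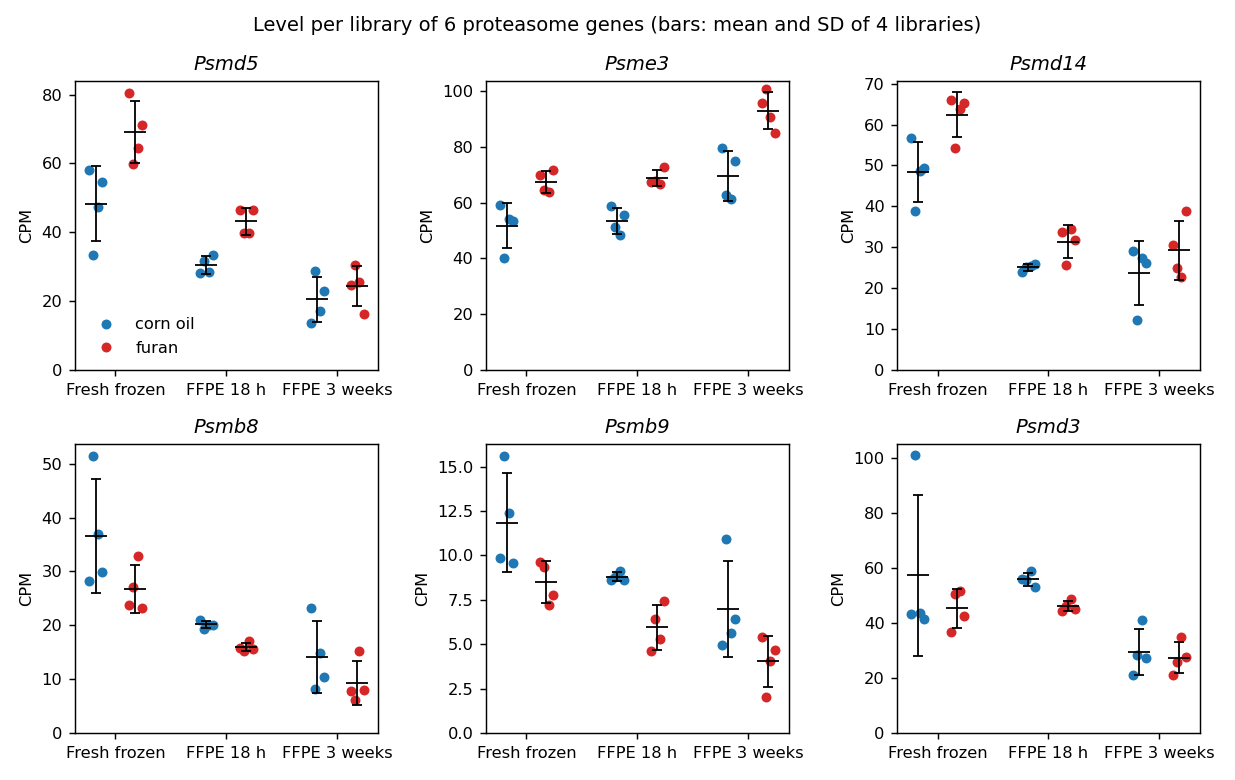
Level per library of Psmd5, Psme3, Psmd14, Psmb8, Psmb9 and Psmd3 in the 3 preservations: points are single livers in CPM, blue for corn oil and red for furan, and bars give mean and SD of 4. Furan values of Psme3 lie above all corn oil values in each preservation, and the high fresh frozen Psmd3 point at 101 CPM is corn oil animal 3.

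In FFPE 3 weeks liver no member was called. edgeR called 0 of 42 higher and 0 lower, where 1.07% and 1.51% of all genes were called, and 2 of 42 members had an unadjusted p below 0.05 (12.4% of all genes). DESeq2 called 0 and 0 (1.59% and 2.23% of all genes). The median log2 fold change was 0.06 over the members and 0.01 over all genes. Groups did not overlap for 2 members, both higher (3.88% of all genes), Psme3 and the alpha subunit Psma1, and for 0 with lower values (4.8%). Psma1 was at 32.1, 27.7, 28.6 and 23.7 CPM with corn oil and at 34.1, 37.1, 50.3 and 32.7 CPM with furan (0.47 ± 0.22, adjusted p = 0.361 by edgeR). Its fresh frozen and FFPE 18 h groups overlapped, with changes of 0.16 ± 0.15 (0.02 ± 0.10 without animal 3) and 0.02 ± 0.07. The constitutive beta subunit Psmb7, with a change of -0.54 ± 0.27 in FFPE 3 weeks, did not pass (adjusted p = 0.414 by edgeR). Errors were wide for members with few counts here: Psme2 had 1 to 85 counts per library and a change of -1.31 ± 1.09.

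**Figure D4:**
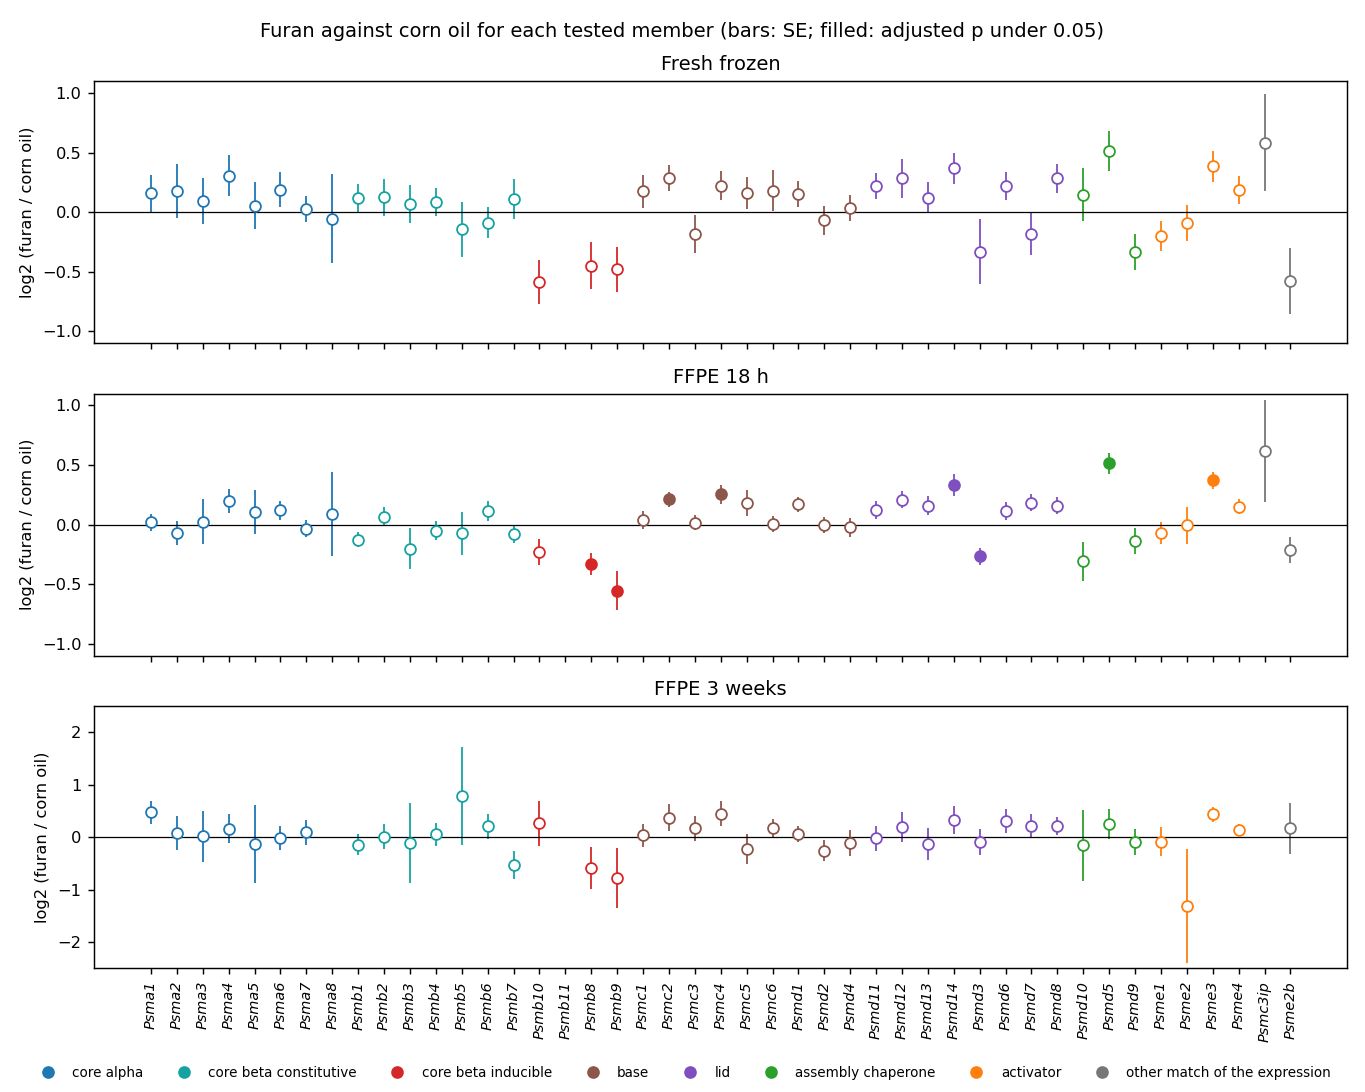
Furan against corn oil for each tested member, as log2 fold change with SE from edgeR in fresh frozen, FFPE 18 h and FFPE 3 weeks liver, coloured by role, filled where the adjusted p was below 0.05. The 8 filled points are all in FFPE 18 h, and the vertical scale of the FFPE 3 weeks panel is wider.

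Whether the furan effect on a member differed between preservations was tested directly as an interaction. edgeR called 0 of 44 members in each of the 3 tests, with 0% of all genes called. DESeq2 called 0 members, and per direction 0% to 0.0971% of all genes. At an unadjusted p below 0.05 there were 0 members for FFPE 18 h against fresh frozen (1.61% of all genes), 1 for FFPE 3 weeks against fresh frozen (4.1%) and 2 for FFPE 3 weeks against FFPE 18 h (5.31%). The furan effects on members are therefore not shown to differ between preservations. The members with small p were Psmc3ip, which had counts in only 2 of the 8 FFPE 3 weeks libraries, and Psma1.

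Other genes of the pathway were read from lists. Of 19 genes that supply or deliver ubiquitin, 6 were called higher and 0 lower in FFPE 18 h liver (7.82% and 7.72% of all genes): Ubb, Uba6, Rad23b, Ubqln1, Faf2 and Sqstm1. In fresh frozen liver 1 was called higher and 0 lower (1.57% and 1.2% of all genes; 2 and 0 without animal 3), and in FFPE 3 weeks 1 and 0 (1.07% and 1.51%). Ubqln1, a shuttle that carries ubiquitinated proteins to the proteasome, rose in fresh frozen liver (log2 fold change 0.61 ± 0.14, adjusted p = 0.0405 by edgeR, and 0.50 ± 0.09 without animal 3) and in FFPE 18 h liver (0.43 ± 0.07, adjusted p = 0.000364 by edgeR). Rad23b, another shuttle, rose in FFPE 18 h (0.32 ± 0.06, adjusted p = 0.00108 by edgeR) and in FFPE 3 weeks (0.40 ± 0.11, adjusted p = 0.0498 by edgeR). Of 16 further subunits, chaperones and inhibitors of the proteasome, 1 was called higher and 0 lower in FFPE 18 h (7.82% and 7.72% of all genes). It was the core assembly chaperone Psmg1 (0.43 ± 0.12, adjusted p = 0.0234 by edgeR). In fresh frozen (1.57% and 1.2% of all genes) and FFPE 3 weeks liver (1.07% and 1.51%) 0 were called. At an unadjusted p below 0.05 there was 1 in each, against 18.4% and 12.4% of all genes. Without animal 3, 1 of these 16 was called higher in fresh frozen liver (4.43% of all genes), Zfand2a (0.44 ± 0.13, adjusted p = 0.0382 by edgeR), named after its value was seen.

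Regulators of the proteasome genes did not move as one. Nfe2l2, the oxidative stress factor, was at 84.2 to 97.0 CPM with corn oil and 107 to 174 CPM with furan in fresh frozen liver (0.61 ± 0.14, adjusted p = 0.0436 by edgeR) and rose in FFPE 18 h as well (0.46 ± 0.08, adjusted p = 0.000913 by edgeR). Nfe2l1, the factor that raises subunit genes when proteasome activity is short, was at 161 to 174 CPM with corn oil and 135 to 141 CPM with furan in FFPE 18 h and fell, with a log2 fold change of -0.26 ± 0.06 (adjusted p = 0.00354 by edgeR). Nlrc5, an activator of class I antigen presentation genes, was lower in FFPE 18 h (-0.55 ± 0.13, adjusted p = 0.0164 by edgeR), as was Foxo4 (-0.37 ± 0.09, adjusted p = 0.00899 by edgeR). Of the 8 regulators listed, 1 was thus called higher and 3 lower in FFPE 18 h (7.82% and 7.72% of all genes). In fresh frozen liver 1 was called higher and 0 lower (1.57% and 1.2% of all genes), and in FFPE 3 weeks 0 and 0 (1.07% and 1.51%). The falls of Nfe2l1, Nlrc5 and Foxo4 were called in FFPE 18 h alone. Irf1, a transcription factor of the interferon response, did not pass in FFPE 18 h, at -0.08 ± 0.10 (adjusted p = 0.667 by edgeR). Of 10 partners of the inducible core in peptide loading, 0 were called higher and 3 lower in FFPE 18 h (7.82% and 7.72% of all genes): H2-K1 (-0.34 ± 0.07), Tap2 (-0.31 ± 0.10) and Tapbp (-0.28 ± 0.07). In fresh frozen (1.57% and 1.2% of all genes) and FFPE 3 weeks liver (1.07% and 1.51%) edgeR called 0 of the 10. At an unadjusted p below 0.05 there were 2 and 3 of the 10, against 18.4% and 12.4% of all genes.

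The second comparison of the design sets the preservations against each other, 8 against 8 libraries over both treatments. It uses all libraries of the 2 preservations, and the 3 contrasts share libraries. Proteasome genes were lower in fixed tissue. In FFPE 18 h against fresh frozen liver 38 of 44 members were called lower, where 27.3% of all genes were, and 1 higher, where 26.6% were. The median log2 difference was -0.81 over the members and 0.01 over all genes. In FFPE 3 weeks against fresh frozen liver again 38 of 44 were called lower (25.8% of all genes) and 1 higher (23%), with medians of -1.40 and -0.02. Between FFPE 3 weeks and FFPE 18 h, 30 of 44 were called lower (17.5%) and 1 higher (14.9%), with medians of -0.57 and -0.05. Libraries did not overlap for 27, 29 and 16 of 44 members with lower values, against 8.93%, 11.4% and 5.42% of all genes. With higher values they did not overlap for 1, 0 and 0 members, against 8.64%, 7.78% and 3.86%.

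These sizes depend on the scaling. Under total counts in place of TMM the median over all genes moved to 0.34 in FFPE 18 h and 0.40 in FFPE 3 weeks against fresh frozen. The median over the members was then -0.49 and -0.97, and relative to all genes the members remained lower. Hepatocyte markers were lower in the same contrasts, 5 of 5 in FFPE 18 h with a median of -0.82 and 5 of 5 in FFPE 3 weeks with a median of -1.40.

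All roles shared the lower levels in FFPE 18 h against fresh frozen liver, with all 7 constitutive beta subunits, all 9 base genes, all 3 inducible subunits tested and all 3 chaperones called lower. Of the other roles, 6 of 8 alpha subunits, 6 of 8 lid genes and 3 of 4 activators were called lower. The call of the inducible Psmb9 was lost under total counts, on thinning and in the 24-library fit. Its differences were then -0.14, -0.28 and -0.47 (adjusted p = 0.354, 0.145 and 0.0596 by edgeR). In FFPE 3 weeks against fresh frozen it was lost under total counts (-0.47, adjusted p = 0.113 by edgeR). The largest falls by the naming rule were those of the alpha subunits Psma2 (-1.24 ± 0.13), Psma6 (-1.17 ± 0.09) and Psma4 (-1.06 ± 0.11) and of Psme2b (-1.06 ± 0.16). Psma6 had a lowest, median and highest value of 78.4, 119 and 132 CPM over the 8 fresh frozen, 45.0, 49.96 and 56.2 CPM over the FFPE 18 h and 21.4, 31.2 and 35.2 CPM over the FFPE 3 weeks libraries, 3 ranges without overlap. In FFPE 3 weeks the largest falls were Psmc3 (-1.997 ± 0.14), a base ATPase, Psme2 (-1.99 ± 0.36), Psma6 (-1.91 ± 0.12) and the lid subunit Psmd13 (-1.84 ± 0.12). Psmc3 had 109, 113 and 179 CPM in fresh frozen, 58.4, 60.8 and 62.8 CPM in FFPE 18 h and 21.6, 29.3 and 40.3 CPM in FFPE 3 weeks libraries, again without overlap.

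A few members went the other way or moved little. Psmd11 was the only member called higher in FFPE 18 h, with 27.7, 31.4 and 38.2 CPM in fresh frozen and 38.3, 41.2 and 47.0 CPM in FFPE 18 h libraries (0.41 ± 0.06, adjusted p = 2.06e-05 by edgeR), and its FFPE 3 weeks values of 19.5, 31.5 and 39.0 CPM overlapped those of fresh frozen tissue. Psme3 was the only member called higher in FFPE 3 weeks, with 40.1, 61.4 and 71.5 CPM in fresh frozen, 48.4, 62.7 and 72.9 CPM in FFPE 18 h and 61.4, 82.3 and 101 CPM in FFPE 3 weeks libraries (0.46 ± 0.10 against fresh frozen, adjusted p = 0.000259 by edgeR). Psme4, the activator with the longest transcript of the set, fell least among the members called lower in both contrasts, by 0.23 and 0.38 on the log2 scale, and under total counts its differences turned to 0.10 and 0.04 without passing (adjusted p = 0.134 and 0.682). Psma3 was called in neither contrast, with -0.28 ± 0.13 and 0.30 ± 0.26.

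Longer transcripts were lowered less. Over the 44 members the difference between FFPE 18 h and fresh frozen had a correlation with log2 transcript length (joined exons) of r = 0.43 (rho = 0.47). That between FFPE 3 weeks and fresh frozen had r = 0.55 (rho = 0.56). Over all genes with a length the values were r = 0.16 (rho = 0.34) and r = 0.15 (rho = 0.33). These are descriptions across genes, which share libraries and are not independent replicates. Fixed libraries were shallower, their RNA was more degraded (RNA integrity numbers of 1.3 to 2.4, against above 8.9 in fresh frozen tissue) and their kit differed, and the part of each in the difference cannot be told apart.

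**Figure D5:**
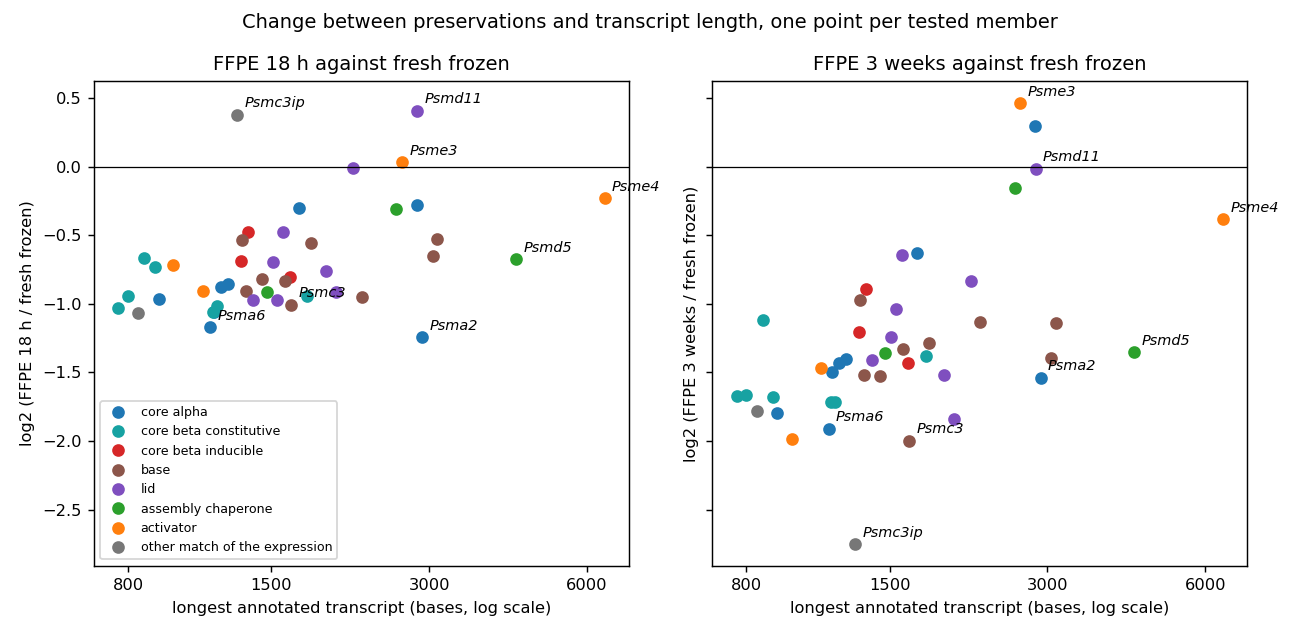
Difference between fixed and fresh frozen liver for each tested member, as log2 fold change from edgeR, against its transcript length (joined exons) in bases on a log scale, coloured by role, for FFPE 18 h (left) and FFPE 3 weeks (right). The axis label names this length the longest annotated transcript. Most points lie below 0, and Psme4 at -0.23 and -0.38 is the longest transcript.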

How the data were processed

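The measurement was RNA sequencing of total RNA depleted of ribosomal RNA in 24 libraries, 3 pieces of each of 8 livers. Per the submitters' processing notes, CASAVA 1.8.2, STAR 2.3.0 and featureCounts 1.4.4 were used with genome build mm9. The deposited values are the authors' whole-number counts per gene symbol, not normalized. Gene models, the strand setting and how multiply mapped reads were treated are not given in the sources used here, so overlapping genes and near copies can share reads. Of 24015 symbols, 4185 had no count.

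Counts were tested in R 4.3.3 with edgeR 4.0.16 (TMM, filterByExpr, robust dispersion, quasi-likelihood test, two-sided), fitted over all genes. Calls use a Benjamini-Hochberg adjusted p below 0.05. CPM of members were scaled by TMM over all 24 libraries. Library deviations used log2 CPM with a pseudocount of 0.5. Replicates are separate animals. Transcript length, GC content and shared words come from GENCODE transcripts of GRCm38, another build than mm9, matched by symbol, and promoters from RefSeq. Length is that of the joined exons of a gene's transcripts matched to RefSeq. GC content and shared words use the longest of these transcripts. Same-numbered libraries are pieces of 1 liver by the labels. Their deviations correlated at r = 0.04 to 0.35 for FFPE 18 h with fresh frozen, 0.008 to 0.13 for FFPE 3 weeks with fresh frozen and 0.03 to 0.13 between the FFPE sets. For animal 3 another animal gave a higher r with fresh frozen, 0.05 against 0.04 in FFPE 18 h and 0.03 against 0.008 in FFPE 3 weeks. The same held for animal 44 between the FFPE sets, at 0.10 against 0.04. Elsewhere the same animal gave the highest r.

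Members and lists were chosen with earlier results of these data known. The naming rule took the 6 cutting beta subunits and 4 activators, the 5 smallest p per furan comparison, the 4 largest called rises and falls per preservation comparison (mean log2 CPM at least 1), the 3 smallest p per interaction, untested members, and up to 4 genes per other list plus Nfe2l1, Nfe2l2, Irf1 and 1 gene that is not reported here. Members named for their level, overlap or a call beyond this rule were chosen after their values were seen. Alternatives were DESeq2 1.42.0 size factors and test, total counts, no filter, leaving out each library or animal, thinning to 5560002 counts (seed 1), a fit over 24 libraries, the replicate block and, added after the data were seen, leaving out 1 fresh frozen library. The test was checked on simulated counts with known changes, 50 genes per fold. Of 1.5-fold changes, 16% were recovered for furan in fresh frozen, 58% in FFPE 18 h and 14% in FFPE 3 weeks libraries. Of 1.25-fold changes the shares were 0%, 10% and 0%, and of 2-fold changes 56%, 70% and 38%. The absence of a call in fresh frozen or FFPE 3 weeks liver therefore does not show that changes of these sizes are absent.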

Additional observations from a re-analysis of the deposited data

Results flagged for a closer look

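For named members, 9 values lay far from the other 3 libraries of their group, by the gap to the nearest library relative to the range of the 4. In 156 groups tested, chance flags about 1 in 20, and 6 of the 9 are in 1 library, the fresh frozen piece of corn oil animal 3. There Psmd3 was at 101 CPM (others 41.3 to 43.5), Psme2b at 59.1 (23.0 to 26.1), Psmb10 at 43.8 (24.1 to 26.2), Psmb5 at 15.7 (7.61 to 8.52), Psmb6 at 112 (79.6 to 82.1) and Psmc3 at 179 (110 to 119), all the highest of their group. Psmd14 was the lowest of its group in 2 places, at 54.2 CPM in fresh frozen furan animal 42 (others 63.8 to 66.0) and at 12.3 CPM in FFPE 3 weeks corn oil animal 3 (26.2 to 29.0). Psma2 was the highest at 61.5 CPM in fresh frozen furan animal 41 (others 50.1 to 51.7).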

How the results depend on the processing

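Counts of members called, medians over members and 99 changes of named members were recomputed under each alternative. In fresh frozen liver the count called higher with furan went from 0 to between 0 and 2, and that called lower from 0 to between 0 and 1, as each library was left out, and DESeq2 called 1 lower. The median ranged from 0.058 to 0.21. Both calls and the lowest median came without corn oil animal 3, where 1148 of 14303 genes were called in either direction (1066 of 14122 by DESeq2 with all libraries). In FFPE 18 h liver the 5 higher became 8 under total counts, where 2229 of 14204 genes were called in either direction. They became 0 in a fit over all 24 libraries, where 305 of 14901 genes were called. With 1 library left out the count was 2 to 5. It was 2 without corn oil animals 3 or 4 or furan animals 41, 43 or 44, and 3 without corn oil animal 6. Those 6 fits called 1582, 1775, 2061, 1809, 1730 and 2029 of 14386 to 14407 genes. The 3 lower became 0 when thinned (1637 of 11948 genes called in either direction) and 0 in the 24-library fit. In FFPE 3 weeks that fit called 3 of 44 members higher and 1 lower, and 1549 of 14901 genes in either direction. Against fresh frozen, the 1 member higher in FFPE 18 h became 3 under total counts, 1 to 2 with an animal left out and 2 without the fresh frozen library of animal 3 alone. Under total counts 8765 of 14843 genes were called in either direction, and without that library 8907 of 14875. The 1 higher in FFPE 3 weeks became 3 under total counts (7504 of 14253 genes called) and 2 without the filter (7099 of 19003). The medians under total counts were -0.49 in FFPE 18 h and -0.97 in FFPE 3 weeks. The fits differ in spread, scaling or depth, and the cause was not tested.

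With the replicate block on the animal 38, 38 and 31 members were called lower in the 3 preservation contrasts (29.1%, 27.5% and 21.4% of all genes) and 1, 1 and 1 higher (28.3%, 19.7% and 14.5%). Psmb10 in FFPE 3 weeks against FFPE 18 h then passed (-0.65, adjusted p = 0.0115 by edgeR), and no interaction was called.

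Changes of sign were small and none of them passed. Psme4 turned to 0.10 and 0.043 under total counts (FFPE 18 h and FFPE 3 weeks against fresh frozen), and Psme3 in FFPE 18 h against fresh frozen to -0.021 without that library, with a range of -0.014 to 0.069 as animals were left out. For furan in fresh frozen liver the ranges with 1 library left out were -0.14 to 0.044 for Psmb6, -0.045 to 0.22 for Psmb7 and -0.25 to 0.16 for Psmb5, the change of sign coming without animal 3. In FFPE 18 h, Psmb5 became 0.012 when thinned and ranged from -0.21 to 0.045, and Psme2 became 0.022 under total counts and ranged from -0.081 to 0.025. In FFPE 3 weeks, Psmb10 ranged from -0.055 to 0.56 and Psme1 from -0.24 to 0.064.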
